A study of Mus musculus with 18 samples.

Results

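Transcripts of fibronectin and of matricellular proteins were followed in 10T1/2 cells, a mouse multipotent fibroblast line that the labels call mesenchymal stem cells and spell CH310T1/2. The 10 genes, taken by gene name from a count table of 54532 genes, were *Fn1*, *Postn*, *Tnc*, *Tgfbi*, *Thbs1*, *Thbs2*, *Thbs3*, *Sparc*, *Sparcl1* and *Fstl1*, and all 10 were among the 14317 genes with enough counts to be tested. The study compared WT cells with FOXS1 KO clones 1 and 2 under a profibrotic followed by an adipogenic stimulus, with 3 poly(A) RNA-seq libraries in each of 6 groups. Cells were grown past confluence and were either left uninduced (labelled Control) or stimulated: TGF-β1 at 1 nM was given first, over 12 h, and DMII, a mix of dexamethasone, isobutylmethylxanthine, insulin and indomethacin, over the next 48 h. Each KO line was grown from a single CRISPR-Cas9 edited cell, so a difference between a KO line and WT cells is a difference of 1 clone, and the effect of the edit and of the clone cannot be told apart. No group received TGF-β1 or DMII alone, so their effects cannot be told apart either. The study's methods describe overnight serum starvation before TGF-β1, and DMII in a medium other than the growth medium. The methods text does not say whether uninduced cells were starved or given that medium. Effects of serum and medium therefore cannot be told apart from those of the stimulus. The sources used here do not say that libraries of a group came from separate cultures, so p-values measure only the spread between these libraries.

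Library totals ran from 15576685 to 42005596 counts, with a median of 20178953, and the deepest was uninduced clone 2 replicate 1. *Foxs1*, the targeted gene, was higher and not lower in the libraries labelled FOXS1 KO (adjusted p = 7.65e-17 or less in each comparison), at 25.7 ± 2.04 (uninduced) and 54.5 ± 2.06 CPM (stimulated) in clone 1 and 22.6 ± 1.44 and 39.9 ± 2.59 CPM in clone 2 against 2.23 ± 0.89 and 2.51 ± 0.64 CPM in WT (mean ± SD, n = 3 libraries, as for all levels below). Total counts of the gene do not show whether its coding sequence was edited, so every genotype direction below rests on the labels, and "clone 1" and "clone 2" stand for the libraries labelled so. The study's methods describe checking the lines by sequencing the locus and blotting for the protein, which are not analysed here. The 9 fibroblast markers summed to 34305 to 79931 CPM, of which *Col1a1* had 9426 CPM or more in each group, whereas the epithelial, endothelial, leukocyte and muscle lists summed to at most 3.52 CPM. Of the fibroblast markers, *Thy1* went opposite ways in the clones. It was close to absent from clone 2 (0.62 and 0.34 CPM uninduced and stimulated) and higher in clone 1 (184 and 161 CPM) than in WT (59.6 and 49.0 CPM). The 3 adipocyte markers (*Adipoq*, *Plin1*, *Cidec*) summed to 14.1 to 17.9 CPM in stimulated clone 1 and to at most 1.18 CPM in every other library, and the part of such cells in the values of stimulated clone 1 was not tested. CPM here are counts relative to TMM-scaled library sizes, and FPKM are these divided by the exonic length in kilobases. In bulk samples such as these, fewer cells of a type and less RNA per cell cannot be told apart.

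Fibronectin is laid down by mesenchymal cells as fibrils that integrins pull into shape, and it serves as the first scaffold on which collagens and other matrix proteins assemble. Matricellular proteins are secreted into the same matrix but mostly act as signals and adaptors: they bind integrins, growth factors and proteases, and they are best known from wounds, tumour stroma and fibrotic tissue. TGF-β is a classic inducer of several of them in fibroblasts, and the TGF-β-activating thrombospondin-1 and the integrin-binding periostin are in turn described as parts of fibrotic signalling.

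The stretches just upstream of the transcription start are shown for the members whose levels differed most between genotypes (*Tgfbi*, *Thbs2*), for *Tnc* and *Postn*, which were lower in the clones, and for *Sparc*, which was not. RefSeq promoter windows (GRCm38.p6, 250 bases before to 50 after a start) were found for 7 of the 10 members, 9 windows in all. The 250 bases before the start are printed 5′ to 3′ on the gene's own strand. Capitals mark TATAAA, the box found near many starts. They also mark CAGACA, a SMAD-binding element, and TAAACA, a forkhead core, and a match on the opposite strand appears as its reverse complement. They lie at chr13:56609336-56609585 on the plus strand (Tgfbi), chr17:14694263-14694512 on the minus strand (Thbs2), chr3:54360857-54361106 on the plus strand (Postn, the second of 2 windows), chr4:64046937-64047186 on the minus strand (Tnc, the first of 2 windows) and chr11:55420081-55420330 on the minus strand (Sparc).
Tgfbi: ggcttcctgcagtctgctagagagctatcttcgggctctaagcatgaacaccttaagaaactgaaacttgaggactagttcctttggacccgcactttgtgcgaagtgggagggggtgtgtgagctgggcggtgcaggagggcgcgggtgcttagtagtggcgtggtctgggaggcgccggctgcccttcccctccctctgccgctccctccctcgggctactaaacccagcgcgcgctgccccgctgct
Thbs2: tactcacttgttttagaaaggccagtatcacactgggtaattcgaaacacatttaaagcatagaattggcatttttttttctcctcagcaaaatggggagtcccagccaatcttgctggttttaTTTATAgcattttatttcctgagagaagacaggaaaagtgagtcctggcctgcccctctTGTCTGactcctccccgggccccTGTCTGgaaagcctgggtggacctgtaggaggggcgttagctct
Postn: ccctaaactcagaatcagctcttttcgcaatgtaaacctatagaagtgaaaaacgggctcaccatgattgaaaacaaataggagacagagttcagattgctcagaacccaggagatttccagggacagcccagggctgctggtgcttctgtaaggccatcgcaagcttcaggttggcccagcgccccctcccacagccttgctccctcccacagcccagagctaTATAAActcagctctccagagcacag
Tnc: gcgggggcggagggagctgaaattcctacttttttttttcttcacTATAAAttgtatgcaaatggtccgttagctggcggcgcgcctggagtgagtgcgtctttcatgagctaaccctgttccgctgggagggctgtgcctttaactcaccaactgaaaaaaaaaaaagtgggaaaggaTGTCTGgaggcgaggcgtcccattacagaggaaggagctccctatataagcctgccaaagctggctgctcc
Sparc: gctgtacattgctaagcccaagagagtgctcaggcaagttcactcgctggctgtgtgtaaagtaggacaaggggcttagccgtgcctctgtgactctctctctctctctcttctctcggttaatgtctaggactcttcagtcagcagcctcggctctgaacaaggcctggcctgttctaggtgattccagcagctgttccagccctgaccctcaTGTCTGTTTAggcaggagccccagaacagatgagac
The *Tgfbi* window held none of the 3 motifs and was rich in CpG, with 22 in 300 bases against a median of 7 over 32851 windows of that length. *Thbs2* had 2 CAGACA matches and a TATAAA on the opposite strand, and only 4 CpG. *Postn* had its TATAAA starting 26 bases before the start, where such boxes usually lie. The TATAAA matches of *Thbs2* and of the printed *Tnc* window began farther away, 126 and 205 bases before the start. The *Tnc* stretch also holds tatataa nearer the start, which is unmarked because it is not TATAAA. *Sparc* alone held TAAACA, overlapping a CAGACA match. Over the full windows TATAAA was found in 4 of the 9 and in 13.6% of all windows, CAGACA in 4 of 9 and in 21% of all, TAAACA in 1 of 9 and in 13.4% of all, and TGANTCA (an AP-1 site) in none of 9 and in 7.81% of all. The 2 *Tnc* windows overlap and share the same TATAAA and the same CAGACA match, which are counted in each. A match of letters is a description and not a bound site.

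The members spanned a wide range of abundance. Per length, uninduced WT cells held 1123 ± 46.2 FPKM of *Sparc*, 956 ± 18.1 of *Fstl1* and 593 ± 85.7 of *Fn1*, then 125 ± 2.62 of *Postn*, 65.3 ± 3.32 of *Tgfbi* and 62.9 ± 8.83 of *Tnc*. *Thbs1* followed at 11.2 ± 1.34 FPKM, and *Sparcl1* (5.97 ± 1.28), *Thbs3* (5.32 ± 0.90) and *Thbs2* (3.28 ± 0.47) were lowest. *Sparc* had the highest level per length in each of the 6 groups, whereas the lowest place was taken by *Thbs2* in uninduced WT and in clone 2, by *Sparcl1* in stimulated WT and by *Tgfbi* in clone 1. *Fn1*, *Sparc* and *Fstl1* together held 89.03 to 97.36% of the members' counts. The 10 genes took 1.97 ± 0.11% of all counts in uninduced WT cells and 4.02 ± 0.15% in stimulated ones, 1.93 ± 0.025 and 3.31 ± 0.082% in clone 1, and 2.27 ± 0.030 and 4.15 ± 0.12% in clone 2. Their summed share was thus higher in the stimulated libraries of WT and of each clone, without overlap, and lowest among the stimulated groups in clone 1.

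**Figure D1:**
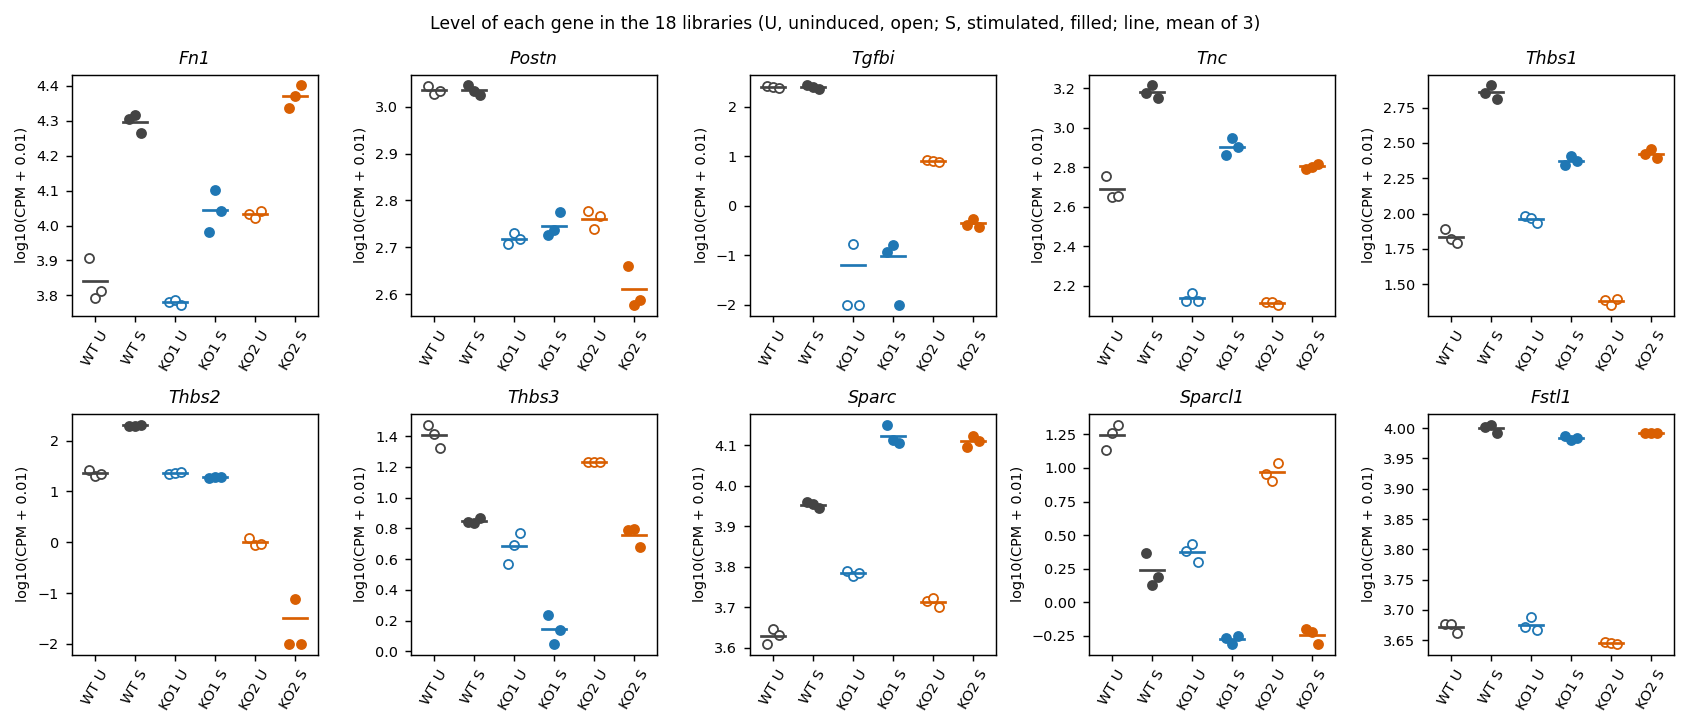
Level of each of the 10 genes in the 18 libraries. The vertical axis is log10(CPM + 0.01) and the horizontal axis the group (KO1 and KO2, clones 1 and 2; U, uninduced, open circles; S, stimulated, filled circles), with a line at the mean of 3 libraries. *Tgfbi* drops from about 250 CPM in WT to a few counts in clone 1, *Thbs2* rises in WT only, and *Fstl1* and *Sparc* rise in WT and both clones.

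Stimulation changed most of the 10 genes in WT cells. With a call defined as an adjusted p under 0.05 (edgeR's quasi-likelihood test, Benjamini-Hochberg over 14317 genes) and an absolute log2 fold change over 1, 8 of 10 members were called in the WT response, against 19.9% of all genes tested. *Fn1*, *Tnc*, *Thbs1*, *Thbs2*, *Sparc* and *Fstl1* rose (6.25% of all genes did), *Thbs3* and *Sparcl1* fell (13.6% of all), and *Postn* and *Tgfbi* were not called. The median log2 fold change was 1.08 over the members and -0.04 over all genes tested. Members were chosen with earlier results of these data known, so such counts and medians, here and below, are a description and not a test. In clone 1, 6 members were called (background 16.7%), with a median of 0.79 against -0.02, and in clone 2, 9 were called (background 17.7%), with a median of 0.31 against -0.02. In stimulated WT libraries the myofibroblast actin *Acta2* stood at 2036 ± 84.4 CPM against 274 ± 19.3 CPM uninduced. Its log2 fold change was 2.89 ± 0.054 (approximate SE, as after all log2 fold changes below). In clone 1 *Acta2* went from 419 ± 6.63 CPM uninduced to 308 ± 7.30 CPM stimulated (log2 fold change -0.44 ± 0.051). In clone 2 it went from 193 ± 6.93 to 323 ± 23.0 CPM (log2 fold change 0.74 ± 0.052). Both stimulated clones were lower than stimulated WT (log2 fold change -2.73 ± 0.054 and -2.65 ± 0.054, adjusted p = 1.3e-26 and 2.4e-26). *Acta2* is among the genes the study itself picked from these libraries, so its direction in the clones is not independent evidence. *Tagln* stayed under 0.9 CPM in every library and is not read here.

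**Figure D2:**
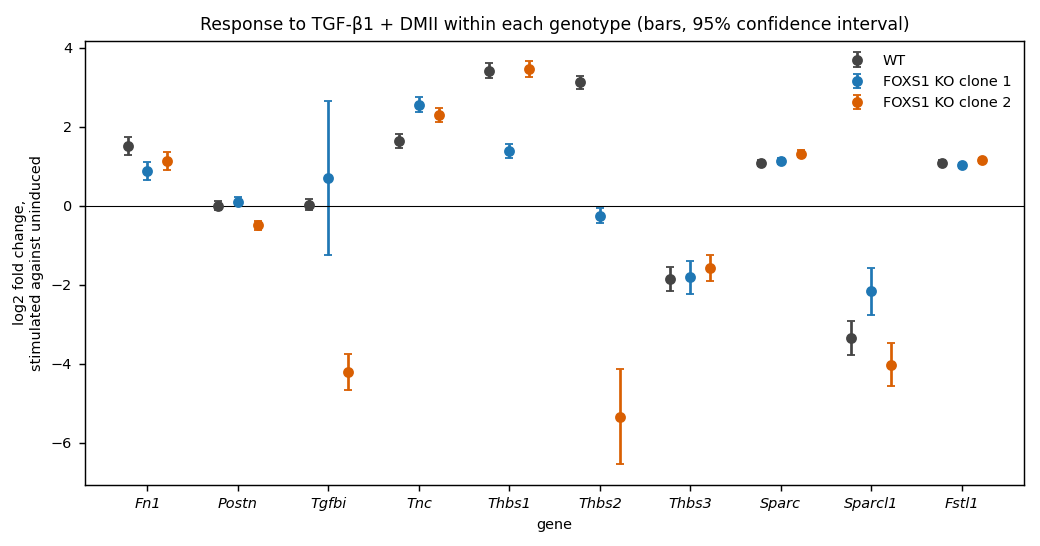
Response of each gene to TGF-β1 + DMII within WT, clone 1 and clone 2. The vertical axis is the log2 fold change of stimulated against uninduced libraries (3 against 3), with points for the estimate and bars for its approximate 95% confidence interval. *Sparc* and *Fstl1* lie near 1 in WT and both clones, *Thbs1* is lower in clone 1, and *Thbs2* lies at 3.12 in WT, -0.25 in clone 1 and -5.34 in clone 2.

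Against WT cells, the members called in the clones were lower. In uninduced cells 5 of 10 were called in clone 1 (*Postn*, *Tgfbi*, *Tnc*, *Thbs3*, *Sparcl1*; 15.1% of all genes called, 8.73% lower) and 4 of 10 in clone 2 (*Tgfbi*, *Tnc*, *Thbs1*, *Thbs2*; 15.1% called, 9.56% lower). In stimulated cells 5 were called in clone 1 (*Tgfbi*, *Thbs1*, *Thbs2*, *Thbs3*, *Sparcl1*; 19.0% called, 9.60% lower) and 6 in clone 2 (*Postn*, *Tgfbi*, *Tnc*, *Thbs1*, *Thbs2*, *Sparcl1*; 16.9% called, 8.94% lower). The members' median log2 fold change was -0.63 and -0.92 in uninduced clones 1 and 2 and -1.29 and -1.34 in stimulated ones, where the medians over all genes tested lay between -0.02 and -0.01. The WT libraries serve as reference for clone 1 and clone 2 alike, so the values of the 2 clones are not independent of each other and are only set side by side.

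**Figure D3:**
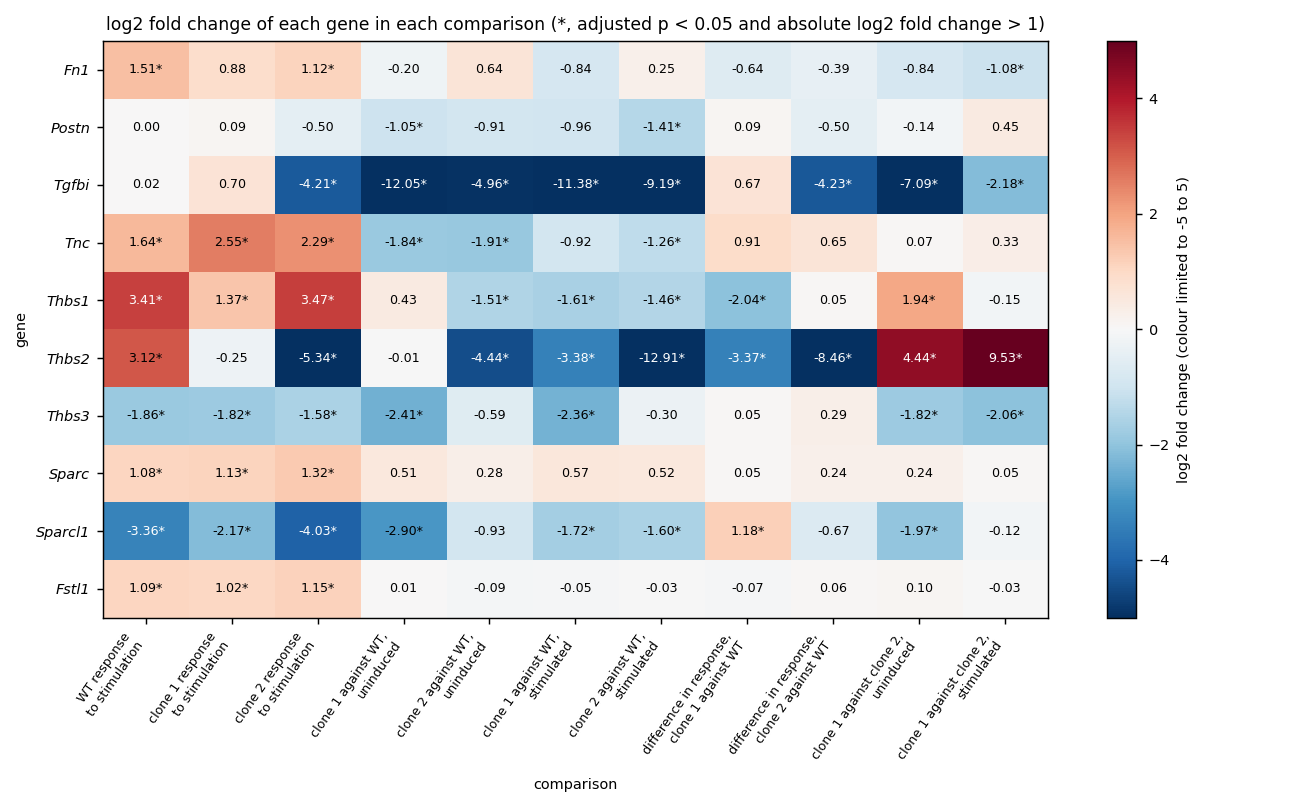
The log2 fold change of each gene (rows) in each of the 11 comparisons (columns), with an asterisk for adjusted p under 0.05 and absolute log2 fold change over 1. Colour runs from blue (lower in the first-named group) to red (higher) and is limited at -5 and 5. In the 4 columns of clones against WT every asterisk is on a blue cell, and *Sparc* and *Fstl1* carry none there.

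*Fn1* (chr1:71585520-71653200, minus strand, GRCm38 as for all positions), which encodes fibronectin, had the most reads of the members in WT and clone 2. Its CPM in the 3 uninduced libraries were 8069, 6199 and 6511 in WT, 6044, 6108 and 5942 in clone 1, and 10785, 10522 and 11019 in clone 2. After stimulation they were 20125, 20748 and 18450.2 in WT, 9613, 12639 and 10992 in clone 1, and 21721, 23526 and 25144.5 in clone 2. Every stimulated library was above the uninduced ones of the same cells (WT, clone 1 or clone 2), and clone 1 was lowest and clone 2 highest in both conditions. The log2 fold change with stimulation was 1.51 ± 0.11 in WT (adjusted p = 2.4e-08) and 1.12 ± 0.11 in clone 2 (adjusted p = 6.2e-07). The latter was not past a test against the fold threshold itself (glmTreat, adjusted p = 0.30). In clone 1 it was 0.88 ± 0.10 (adjusted p = 7.7e-06), under the fold threshold, and the response of clone 1 was smaller than that of WT by 0.64 ± 0.15 on the log2 scale (adjusted p = 0.0046). Stimulated clone 1 stood 0.84 below WT on the log2 scale, and stimulated clone 2 at 0.25 ± 0.10 (adjusted p = 0.061).

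*Tnc* (chr4:63959785-64047015, minus strand) encodes tenascin-C, a large hexameric glycoprotein that fibroblasts make in wounds and around tumours. In WT it stood at 568, 448 and 451 CPM uninduced and 1510.1, 1639 and 1420.03 CPM stimulated. In clone 1 the values were 133, 146 and 132 and then 730, 884 and 797 CPM, and in clone 2 132, 131 and 127 and then 617, 635 and 660 CPM. Both clones were lower than WT in both conditions without overlap, yet the fold of induction was larger in them. The log2 fold change with stimulation was 1.64 ± 0.084 in WT, 2.55 ± 0.089 in clone 1 and 2.29 ± 0.088 in clone 2. The difference in response from WT was 0.91 ± 0.12 in clone 1 (adjusted p = 7.7e-06) and 0.65 ± 0.12 in clone 2 (adjusted p = 0.00030), in both under the fold threshold. *Tnc* was 3.57-fold and 3.76-fold lower in uninduced clones 1 and 2, and 1.90-fold and 2.39-fold lower after stimulation.

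*Postn* (chr3:54361109-54391037, plus strand) and *Tgfbi* (chr13:56609523-56639562, plus strand) encode the fasciclin-domain proteins periostin and TGF-β-induced protein. *Postn*, an integrin ligand made by activated fibroblasts, did not move with stimulation in WT, at 1109, 1065 and 1079 CPM uninduced and 1110.5, 1083 and 1062 CPM stimulated (95% confidence interval of the log2 fold change -0.11 to 0.11). It stood at 510, 537 and 521 and then 533, 544 and 595 CPM in clone 1, and at 599, 548 and 584 and then 458, 378 and 386 CPM in clone 2. Every clone library lay below every WT library, and clone 1 lay slightly below clone 2 when uninduced (log2 fold change -0.14 ± 0.055, adjusted p = 0.038). With stimulation clone 2 fell by 0.50 on the log2 scale (adjusted p = 6.5e-09, under the fold threshold), and clone 1 was at 0.09 ± 0.055 (adjusted p = 0.16). Against WT the log2 fold change was -1.05 ± 0.055 in uninduced clone 1 (adjusted p = 1.1e-15, and adjusted p = 0.49 when tested against the fold threshold itself), -0.91 ± 0.055 in uninduced clone 2, -0.96 ± 0.055 in stimulated clone 1 and -1.41 ± 0.056 in stimulated clone 2 (adjusted p = 7.9e-19). *Postn* is among the genes the study itself picked from these libraries, so its direction in the clones is not independent evidence.

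*Tgfbi* differed most plainly between genotypes. Named for its induction by TGF-β in other cells, it did not change with stimulation in WT, at 256, 251 and 232 CPM uninduced and 267, 254 and 230.2 CPM stimulated. Clone 1 had 0, 3 and 0 counts uninduced and 2, 4 and 0 counts stimulated. Clone 2 had 369, 177 and 128 counts uninduced, or 8.23, 7.84 and 7.42 CPM, and 7, 8 and 6 counts stimulated, or 0.39, 0.52 and 0.36 CPM. No clone library came near a WT library, and clone 2 retained a low level that fell further on stimulation. The ratio of pooled counts, with exact counting intervals that cover counting error only, was 4681 (95% interval 1601 to 22700.5) for uninduced WT over clone 1 and 2828 (1299 to 7707) for stimulated WT over clone 1. For WT over clone 2 the edgeR fold was 31.1 uninduced (log2 fold change -4.96 ± 0.091, adjusted p = 1.6e-26), and the counting ratio after stimulation was 593 (388 to 958). The fitted values for clone 1 (-12.05 uninduced, -11.38 stimulated) rest on those few counts: without uninduced replicate 2, the only uninduced library with counts, the first was -15.38, and without stimulated replicates 2 and 3 in turn the second was -12.15 and -10.83. In clone 2 *Tgfbi* fell 18.5-fold with stimulation in the fit (adjusted p = 6.4e-16), with a ratio of pooled counts of 18.9 (95% interval 12.2 to 30.7), and this response differed from that of WT by -4.23 ± 0.24 (adjusted p = 2.0e-14). In clone 1 no response can be read from 3 against 6 counts.

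The thrombospondins are calcium-binding multimers. *Thbs1* (chr2:118111876-118127133, plus strand), whose product can release TGF-β from its latent complex, rose with stimulation from 77.3, 65.5 and 61.7 CPM to 719, 806 and 650.2 CPM in WT. In clone 1 it went from 95.9, 93.5 and 85.8 to 221, 255 and 236 CPM, and in clone 2 from 24.3, 22.7 and 24.7 to 262, 284 and 246 CPM. The 2 clones thus started on opposite sides of WT and ended at overlapping levels, 3.05-fold and 2.75-fold lower than WT. The log2 fold change was 3.41 ± 0.090 in WT, 1.37 ± 0.085 in clone 1 and 3.47 ± 0.095 in clone 2. The response of clone 1 was smaller than that of WT by 2.04 ± 0.12 (adjusted p = 2.8e-11), whereas that of clone 2 differed from WT by 0.05 (95% confidence interval -0.21 to 0.31). In uninduced cells clone 1 was higher than WT by 0.43 ± 0.087 (adjusted p = 0.00032, under the fold threshold) and clone 2 was lower by 1.51 on the log2 scale (adjusted p = 3.2e-11).

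*Thbs2* (chr17:14665500-14694235, minus strand), the close relative of *Thbs1* that restrains vessel growth and matrix proteases, behaved differently in WT, clone 1 and clone 2. WT had 26.6, 20.1 and 22.2 CPM uninduced and 198, 195 and 204 CPM stimulated, an 8.70-fold rise (log2 fold change 3.12 ± 0.084, adjusted p = 2.2e-23). Clone 1 had 21.6, 22.8 and 23.7 CPM uninduced, inside the WT range, and 18.05, 19.54 and 19.54 CPM stimulated, with a log2 fold change of -0.25 ± 0.089 (adjusted p = 0.017, under the fold threshold). Clone 2 had 53, 20 and 16 counts uninduced, or 1.18, 0.89 and 0.93 CPM, and 0, 1 and 0 counts stimulated. Clone 1 was therefore like WT until it was stimulated, and clone 2 was low before and close to absent after. The response differed from that of WT by -3.37 ± 0.12 in clone 1 (adjusted p = 2.0e-19) and by -8.46 ± 0.47 in clone 2 (adjusted p = 7.6e-15). The value for clone 2 rests on a single count. Its approximate SE is below that of the clone 2 response alone (0.59), so it understates the spread. Without stimulated replicate 2 the value was -10.66. The ratio of pooled counts of stimulated WT over stimulated clone 2 was 9902 (95% interval 1777 to 391131), and uninduced WT exceeded uninduced clone 2 by 21.8-fold in the fit (adjusted p = 5.0e-22).

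*Thbs3* (chr3:89215180-89226837, plus strand), a pentameric thrombospondin of bone and cartilage, fell with stimulation in WT and in both clones. It went from 29.8, 26.0 and 21.2 to 6.94, 6.78 and 7.35 CPM in WT, from 3.69, 4.88 and 5.90 to 1.70, 1.11 and 1.37 CPM in clone 1, and from 17.1, 17.0 and 17.0 to 6.16, 6.21 and 4.75 CPM in clone 2. Uninduced clone 1 was already below stimulated WT cells. The log2 fold changes with stimulation were -1.86 ± 0.15, -1.82 ± 0.21 and -1.58 ± 0.16, and the differences in response from WT had 95% confidence intervals from -0.53 up to 0.63 in clone 1 and from -0.16 up to 0.73 in clone 2. Clone 1 was 5.30-fold and 5.13-fold lower than WT uninduced and stimulated (adjusted p = 7.9e-14 and 1.3e-11), and clone 2 was lower by 0.59 on the log2 scale uninduced (adjusted p = 0.00063) and at -0.30 ± 0.17 stimulated (adjusted p = 0.13). Exons of *Mtx1* on the other strand cover 6.59% of its exonic bases, and reads there cannot be assigned where the strand setting of the counting is not given. *Mtx1* itself differed by at most 0.37 on the log2 scale between clones and WT. For *Thbs1*, *Fn1* and *Tnc*, non-coding genes on the other strand cover 3.42, 2.5 and 2.26% of the exonic bases.

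Added over the 5 thrombospondin genes (with *Thbs4* and *Comp*), the level per length was 24.7 ± 2.00 FPKM in uninduced WT and 153 ± 12.6 FPKM in stimulated WT. It was 21.1 ± 0.71 and 44.2 ± 2.93 FPKM in clone 1 and 9.19 ± 0.28 and 46.3 ± 3.02 FPKM in clone 2. Stimulated clones thus ended at a like summed level from different starting points. The make-up differed: *Thbs1* held 45.4 ± 1.80% of the sum in uninduced WT and 77.8 ± 2.04% after stimulation, when *Thbs2* held 18.7 ± 1.96%. In stimulated clone 1 *Thbs1* held 88.3 ± 1.00% and *Thbs2* 6.15 ± 0.19%, and in stimulated clone 2 *Thbs1* held 94.0 ± 1.01% and *Thbs3*, with 2.55 ± 0.24%, outranked *Thbs2*. *Thbs4*, with 17.19 ± 3.297% of the sum in uninduced WT, was down to at most 3 counts a group in the clones.

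**Figure D4:**
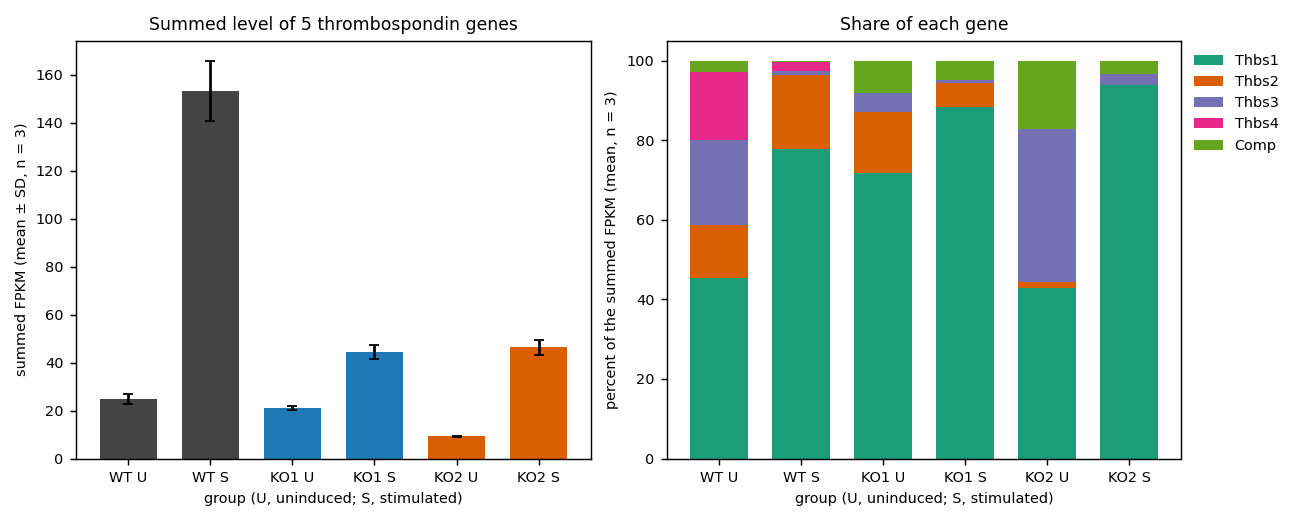
Level and make-up of 5 thrombospondin transcripts by group. On the left, bars give the summed FPKM (mean, with SD as error bars, of 3 libraries), and on the right each colour gives the mean share of one gene in that sum, in percent. The sum is highest in stimulated WT at 153 FPKM, *Thbs4* (pink) shows in WT only, and *Thbs2* (orange) is largest in WT among the stimulated groups and absent from view in stimulated clone 2.

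*Sparc* (chr11:55394500-55423183, minus strand) encodes osteonectin, a collagen-binding protein that fibroblasts need to build firm fibrils. It stood at 4067, 4415 and 4274 CPM in uninduced WT, 6159, 5969 and 6095 in clone 1, and 5177, 5281 and 5019 in clone 2. After stimulation it stood at 9085, 9024 and 8815 CPM in WT, 14129.6, 12950.5 and 12764 CPM in clone 1, and 12451, 13273 and 12869 CPM in clone 2. The clones were above WT in both conditions without overlap. The log2 fold change against WT was 0.51 ± 0.039 and 0.28 ± 0.039 in uninduced clones 1 and 2 and 0.57 ± 0.039 and 0.52 ± 0.039 in stimulated ones, each past the adjusted p (5.5e-07 at most) and under the fold threshold. The response to stimulation was 1.08 ± 0.040 in WT (not past the fold threshold when tested against it, adjusted p = 0.058), 1.13 ± 0.040 in clone 1 and 1.32 ± 0.040 in clone 2.

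*Fstl1* (chr16:37776873-37836514, plus strand), a secreted follistatin-like glycoprotein, was the least variable member between genotypes. It stood at 4746, 4752 and 4595 CPM in uninduced WT and 10032, 10129 and 9825 CPM in stimulated WT. The means were 4741 ± 126 and 9637 ± 89.8 CPM in clone 1 and 4424 ± 20.1 and 9814 ± 5.10 CPM in clone 2. Its log2 fold change with stimulation was 1.09 ± 0.032, 1.02 ± 0.032 and 1.15 ± 0.032 in WT, clone 1 and clone 2, the middle one not past the fold threshold when tested against it (adjusted p = 0.59). The 95% confidence intervals of the clones against WT lay between -0.15 and 0.079 in all 4 comparisons. *Sparcl1* (chr5:104079111-104113733, minus strand) encodes hevin, an anti-adhesive relative of SPARC that is associated with quiet tissue, and it went the other way.

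*Sparcl1* fell with stimulation from 13.5, 18.1 and 21.0 to 2.30, 1.34 and 1.53 CPM in WT, from 2.41, 2.68 and 1.97 to 0.53, 0.48 and 0.55 CPM in clone 1, and from 8.97, 8.02 and 10.9 to 0.62, 0.59 and 0.48 CPM in clone 2. The uninduced WT libraries were the highest, uninduced clone 1 overlapped stimulated WT, and both clones ended under 0.7 CPM. The log2 fold change was -3.36 ± 0.21, -2.17 ± 0.29 and -4.03 ± 0.27. The fall was smaller in clone 1 than in WT by 1.18 ± 0.39 (adjusted p = 0.020), a call that was lost without WT stimulated replicate 2 (adjusted p = 0.055), without clone 1 stimulated replicate 3 (adjusted p = 0.054) and in a test against the fold threshold. Clone 1 was 7.47-fold lower than WT uninduced (adjusted p = 4.5e-13) and 3.29-fold lower stimulated. Clone 2 was 3.02-fold lower stimulated (adjusted p = 9.1e-05, not past a test against the fold threshold, adjusted p = 0.093) and lower by 0.93 on the log2 scale uninduced. The latter passed the fold threshold without WT uninduced replicate 1 (-1.08) or clone 2 uninduced replicate 3 (-1.04).

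The response itself differed from WT, by the interaction term of the same fit, for 3 members in clone 1 (*Thbs1*, *Thbs2*, *Sparcl1*; background 8.81%) and for 2 in clone 2 (*Tgfbi*, *Thbs2*; background 7.85%). Compared with each other, the clones differed in 5 members when uninduced (background 8.67%): clone 1 was higher in *Thbs1* and *Thbs2* and lower in *Tgfbi*, *Thbs3* and *Sparcl1*. When stimulated they differed in 4 (background 9.98%): clone 1 was higher in *Thbs2* and lower in *Fn1*, *Tgfbi* and *Thbs3*. *Fn1* in this comparison was at -1.08 ± 0.11 and lost its call without clone 1 stimulated replicate 1, at -0.99.

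The proteins that these genes encode act through integrins, syndecans, CD36, CD47 and transglutaminase, and a list of 24 receptors and assembly factors and one of 24 other matricellular genes were read beside them. Of 22 receptors tested, 3 rose and 4 fell in the WT response (background 19.9%), 4 were higher and 3 lower in stimulated clone 1 than in WT (background 19.0%), and 5 were higher and 3 lower in stimulated clone 2 (background 16.9%). The integrin subunit *Itgb3*, which pairs with the αv chain to bind fibronectin, periostin and thrombospondin, rose more in clone 1 than in WT (difference in response 1.35 ± 0.074, adjusted p = 4.7e-15), at 339 ± 8.75 against 116 ± 2.79 CPM after stimulation. In clone 2 it stood at 253 ± 14.2 CPM after stimulation, 1.13 ± 0.052 above WT on the log2 scale (adjusted p = 1.1e-17), and its response exceeded that of WT by 0.98 ± 0.074 (adjusted p = 6.6e-12, just under the fold threshold). *Tgm2*, the enzyme that crosslinks fibronectin, was lower in stimulated clone 1 at 0.34 ± 0.15 and clone 2 at 0.88 ± 0.090 CPM against 17.0 ± 2.21 CPM in WT (adjusted p = 1.4e-15 and 1.1e-13).

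Of 17 other matricellular genes tested, 8 rose and 3 fell in the WT response (background 19.9%), 4 were higher and 7 lower in stimulated clone 1 than in WT (background 19.0%), and 5 were higher and 6 lower in stimulated clone 2 (background 16.9%). *Ctgf* (connective tissue growth factor) rose by 3.79 ± 0.15 in WT on the log2 scale, and *Nov*, of the same CCN family, fell by 6.95 ± 0.088. *Smoc2*, a SPARC-family member that lies 260.7 kb from *Thbs2* on chromosome 17, stood at 156 ± 8.34 CPM in uninduced WT and at 6.75 ± 1.05 and 11.6 ± 0.90 CPM in uninduced clones 1 and 2 (adjusted p = 1.9e-26 and 1.7e-25). *Thbs4* stood at 13.8 ± 1.76 and 11.4 ± 1.46 CPM in WT, and its 4 clone groups had 1, 3, 0 and 1 counts. Compared with the members, *Thbs4* and *Smoc2* were also lower in both clones, and *Comp* was higher, at 6.31 ± 1.05 and 4.68 ± 1.21 CPM in stimulated clones 1 and 2 against 1.43 ± 0.013 CPM in WT (adjusted p = 2.1e-09 and 2.9e-07).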

How the data were processed

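Poly(A) RNA-seq libraries from uninduced and stimulated 10T1/2 cells, WT or FOXS1 KO, were used (18 libraries, 3 per group). The authors mapped reads to the mouse genome (mm10) with HISAT2 and deposited raw counts per gene. For the counting program, annotation release and strand setting, the sources used here give nothing. The table also lists gene positions and lengths, which matched GENCODE M21 for the 10 members.

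Counts were normalized with TMM and fitted over all 6 groups with edgeR 4.0.16 (glmQLFit, robust, R 4.3.3), after filterByExpr with a minimum count of 10. Genes with Benjamini-Hochberg adjusted p under 0.05 and absolute log2 fold change over 1 were called. The SE of a log2 fold change was its absolute value divided by the square root of the quasi-likelihood F statistic. It is therefore approximate, as are the 95% confidence intervals built from it. Totals of 15576685 to 42005596 counts set the precision, and ratios of *Tgfbi* and *Thbs2* against groups of at most 21 counts have exact 95% intervals. The script was tested on simulated data. Alternatives were DESeq2 1.42.0, its size factors, filters, only the groups compared, call rules, a replicate block and leaving out each library. The members and lists were chosen with earlier results of these data known. Named were all members, *Foxs1*, the called list genes with the 3 largest changes in a comparison, response genes and genes among the 3 most like a member. 1 item under this rule is not reported here. *Comp* and the genes near members were named after their values were seen.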

Additional observations from a re-analysis of the deposited data

Results flagged for a closer look

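Responses to stimulation differed from WT by the interaction test of the edgeR fit for *Thbs1* (-2.04), *Thbs2* (-3.37) and *Sparcl1* (1.18) in clone 1 and for *Tgfbi* (-4.23) and *Thbs2* (-8.46) in clone 2, on the log2 scale. The 2 clones, labelled with the same genotype, differed when uninduced in *Tgfbi* (-7.09), *Thbs1* (1.94), *Thbs2* (4.44), *Thbs3* (-1.82) and *Sparcl1* (-1.97), given as log2 fold changes of clone 1 against clone 2. When stimulated they differed in *Fn1* (-1.08), *Tgfbi* (-2.18), *Thbs2* (9.53) and *Thbs3* (-2.06). The values of *Tgfbi* in clone 1 and of *Thbs2* in stimulated clone 2 rest on at most 6 counts a group. Without clone 1 uninduced replicate 2 the uninduced *Tgfbi* value was -10.43, and without clone 2 stimulated replicate 2 the *Thbs2* values were 11.72 between the stimulated clones and -10.66 in the response of clone 2 against WT. Leaving out stimulated libraries of clone 1 moved the stimulated *Tgfbi* value between -2.96 (without replicate 2) and -1.64 (without replicate 3).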

How the results depend on the processing

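The count of members called stayed within 1.5 times its value under DESeq2, its size factors, both filters, fits of only the groups compared and every left-out library. Same-numbered libraries did not deviate together over all tested genes (45 correlations of their deviations from group means, -0.041 to 0.050). The numbers were therefore not used as a pairing. A batch that affects only some genes could be missed by this check. With the replicate number as a block, 8 members were called in the WT response, and the block changed no count of members called in the other comparisons. Without a fold threshold, 10 members were called in uninduced clone 2 against WT, 9 in stimulated clone 1 against WT, 5 and 5 in the differences in response of clones 1 and 2, and 9 between uninduced clones, by the construction of the rule, which called 53.2, 58.9, 31.6, 31.2 and 42.2% of all genes tested. The receptor list then had 18 called in the WT response, 15 and 18 in stimulated clones 1 and 2 and 12 and 15 in the differences in response, and the other matricellular list 12 in the difference of clone 2. That rule called 60.7% of all genes in the WT response and 58.9 and 56.0% in stimulated clones 1 and 2 against WT. Against the fold threshold itself (glmTreat), 2 members were called between stimulated clones (4.49% of all genes) and 2 and 2 receptors in the differences in response (3.79 and 3.18%). Signs turned only for values that were not called in the fit reported, all near 0 except *Tgfbi* in the response of clone 1 (0.70) and in its difference from WT (0.67), and the cause was not tested: *Postn* in the WT response (-0.0073 with DESeq2, -0.0073 with its size factors, -0.011 with a 1 CPM filter), and without a filter *Thbs2* in uninduced clone 1 (0.014) and, in the difference of clone 2, *Thbs1* (-0.019) and *Fstl1* (-0.0091). Leaving out 1 library gave *Postn* (-0.0083 to 0.035) and *Tgfbi* (-0.013 to 0.10) in the WT response, *Tgfbi* in the response of clone 1 (-0.068 to 4.03) and in its difference from WT (-0.11 to 4.004), *Thbs2* (-0.090 to 0.10) and *Fstl1* (-0.0080 to 0.029) in uninduced clone 1, *Thbs3* in the difference of clone 1 (-0.12 to 0.22), *Thbs1* in that of clone 2 (-0.050 to 0.13), and *Sparc* between stimulated clones (-0.0016 to 0.084). The call of *Tgfbi* in the response of clone 1 (4.03, adjusted p = 0.042) appeared only without uninduced replicate 2, which leaves 0 counts in that group. The response of *Thbs2* in clone 2 was -7.52 without stimulated replicate 2, which leaves 0 counts there. Depth limits *Tgfbi* in clone 1 and in stimulated clone 2, *Thbs2* in stimulated clone 2 and *Thbs4* in both clones, where counts were in single digits. *Sparcl1* was also low in the stimulated clones, at 10, 13 and 12 counts in clone 1 and 11, 9 and 8 in clone 2.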

Other observations

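Genes within 500 kb were read for all members, and those of *Tgfbi*, *Thbs2*, *Thbs3* and *Sparc* are given here. On the log2 scale against WT, *Smad5*, 63.4 kb from *Tgfbi*, was at -0.23 and -0.31 in uninduced clones 1 and 2 and at -0.48 and -0.51 in stimulated ones. *Fbxl21*, at 71.6 kb and 1.59 CPM in uninduced WT, was lower, at -2.88 and -1.48 uninduced and -3.48 and -1.16 stimulated. The medians over the 4 tested neighbours of *Tgfbi* were -0.23 and -0.19 in uninduced and -1.98 and -0.83 in stimulated clones 1 and 2. The stimulated medians lean on genes near the floor: *Fbxl21*, at 0.55 CPM in stimulated WT, and *Cxcl14*, at 0.78 CPM there and 0 CPM in the stimulated clones. *H2afy*, at 104 CPM in stimulated WT, was at -0.46 and -0.49 in stimulated clones 1 and 2. Next to *Thbs3*, *Fam189b* at 25.9 kb stood at -5.85 uninduced and -8.93 stimulated in clone 1 and at -2.47 and -3.92 in clone 2, where *Thbs3* itself was not called. The medians over the 36 tested neighbours of *Thbs3* lay between 0.11 and 0.28. For the 7 tested neighbours of *Thbs2* they were 0.28 and -0.30 in uninduced and 0.24 and 0.02 in stimulated clones 1 and 2. Among these 7, *Smoc2* was at -4.53 and -3.73 in uninduced and -2.89 and -2.14 in stimulated clones 1 and 2. *Gm2a*, 281.5 kb from *Sparc* and at 76.3 CPM in uninduced WT, was at -6.03 and -4.23 in uninduced and -10.32 and -5.87 in stimulated clones 1 and 2. Neighbours of the other members, some of them also lower in the clones, are not listed. Whether members and their neighbours share a cause was not tested. The genes whose log2 CPM followed a member most closely over the 18 libraries (Pearson's r among 10059 genes, as a description, since all points share their 6 groups) included *Ctsl* for *Fstl1* (0.995), *Pfkfb3* for *Tnc* (0.992), *Ctla2a* for *Sparc* (0.991), *Grb10* for *Tgfbi* (0.988), *Hes1* (0.985) and *Fbn1* (0.983) for *Thbs1*, *Matn4* for *Thbs3* (0.981), *Fzd3* for *Postn* (0.978), *Suco* for *Fn1* (0.977), *Smarcc2* for *Sparcl1* (0.974) and *Txndc5* for *Thbs2* (0.971).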
